A study of Mus musculus with 12 samples.

Results

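Iron and haem handling in the mouse liver was described here through 10 genes: Cd163, Hmox1 and Hpx for the clearance of haemoglobin and haem, Fth1 and Ftl1 for iron storage, Slc40a1 for export, Tfrc for uptake, Hamp and Hamp2 for the hormone hepcidin, and Bmp6 for the control of hepcidin. They were the rows of the deposited gene table that carry these symbols, 10 of 17871 genes, and the 10 were among the 12896 genes with enough counts to be tested. Liver RNA was sequenced in 12 male mice, 3 in each of 4 groups. LBA10 mice received busulfan at 40 mg/kg as a single injection into the peritoneal cavity and then alginate oligosaccharides (AOS) at 10 mg/kg by gavage every day for 5 weeks. LBA0 mice received the same dose of busulfan and then water by gavage. LA10 mice received AOS at 10 mg/kg without busulfan, and LA0 mice received water without busulfan. Busulfan is an alkylating drug that damages DNA and empties the bone marrow, and AOS are short fragments of a polysaccharide of brown algae. All mice were 3 weeks old at the start, of the stock that the labels spell IRC mouse (an outbred stock, known as ICR), carried no engineered allele and shared the same housing. The labels give the tissue as Cells and the protocol as liver, and the hepatocyte list (8 genes, albumin among them) was abundant in all 12 libraries, with a summed level of 83630 to 112400 CPM (library-scaled counts).

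Iron moves through the liver in a loop. Kupffer cells, the macrophages of the liver sinusoids, take up worn red cells and the haemoglobin that leaks from them, break the haem open and return the iron to the blood, while hepatocytes store iron in ferritin and secrete hepcidin, which shuts the exporter ferroportin. Sinusoidal endothelial cells set the level of hepcidin by making the ligands Bmp6 and Bmp2, which signal to hepatocytes through receptors and SMAD proteins.

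Levels are given as CPM, the count of a gene scaled by library size and composition, or as the deposited RPKM, which are also divided by gene length and alone allow genes to be ranked against each other. Library totals were 16439508 to 18174590 counts. Differences were tested by edgeR over the 12 libraries and a gene was called at a Benjamini-Hochberg adjusted p under 0.05, with the adjustment over the 12896 genes. The p-values rest on an estimate of spread for each gene that is pooled over the livers of all 4 groups. They do not measure the spread within the groups compared alone. LA0 replicates 1 and 2 stood apart from the other libraries: a smooth curve of transcript length and GC content accounted for 22.9% and 15% of the variance of their genes around the mean profile of the 12 libraries, against 0.323% to 6.36% in the other 10 libraries. Both comparisons with LA0 rest on these libraries, and so does the difference of the AOS effects with and without busulfan. The values of the 10 genes against LA0 are therefore also given with the length and GC trends removed, without both libraries, or under both alternatives.

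Per length, Ftl1 was the most abundant of the 10 transcripts, with a mean of 3295 RPKM over the 12 livers. Hpx (1880 RPKM), Hamp (1565 RPKM) and Fth1 (1453 RPKM) came next, followed by Hamp2 (351.5 RPKM), Slc40a1 (60.5 RPKM), Hmox1 (17 RPKM) and Tfrc (5.18 RPKM). The lowest were Cd163 (1.31 RPKM) and Bmp6 (0.957 RPKM), both made by cells that are a minority in the liver. The spread was widest for the lowest genes, Cd163 and Bmp6, and narrowest for Fth1 and Ftl1, and did not follow the order of level between these. The highest liver had 1.27 times the RPKM of the lowest for Fth1 and 1.29 times for Ftl1, 2.05 to 3.39 times for Hpx, Slc40a1, Tfrc, Hamp, Hmox1 and Hamp2, 4.94 times for Bmp6 and 15 times for Cd163.

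In each comparison 1 of the 10 genes was called. In LBA10 against LBA0 it was Cd163, which fell, where 0.0543% of all genes tested (7 genes) were called. In LBA10 against LA10 it was again Cd163, which fell, against 0.124% of all genes (16 genes). The effect of AOS with busulfan minus that without busulfan differed for Cd163, against 0.0543% of all genes (7 genes). In LBA0 against LA0 it was Slc40a1, which rose, where 6.38% of all genes were called, 4.09% higher and 2.3% lower. In LA10 against LA0 it was again Slc40a1, which rose, where 3.64% of all genes were called, 2.14% higher and 1.5% lower. Beside 6.38% and 3.64%, a count of 1 in 10 was no result about the 10 genes as a group. The 10 genes were chosen with earlier results of these data known. The counts beside 0.0543% and 0.124% are therefore no result about the group either.

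**Figure D1:**
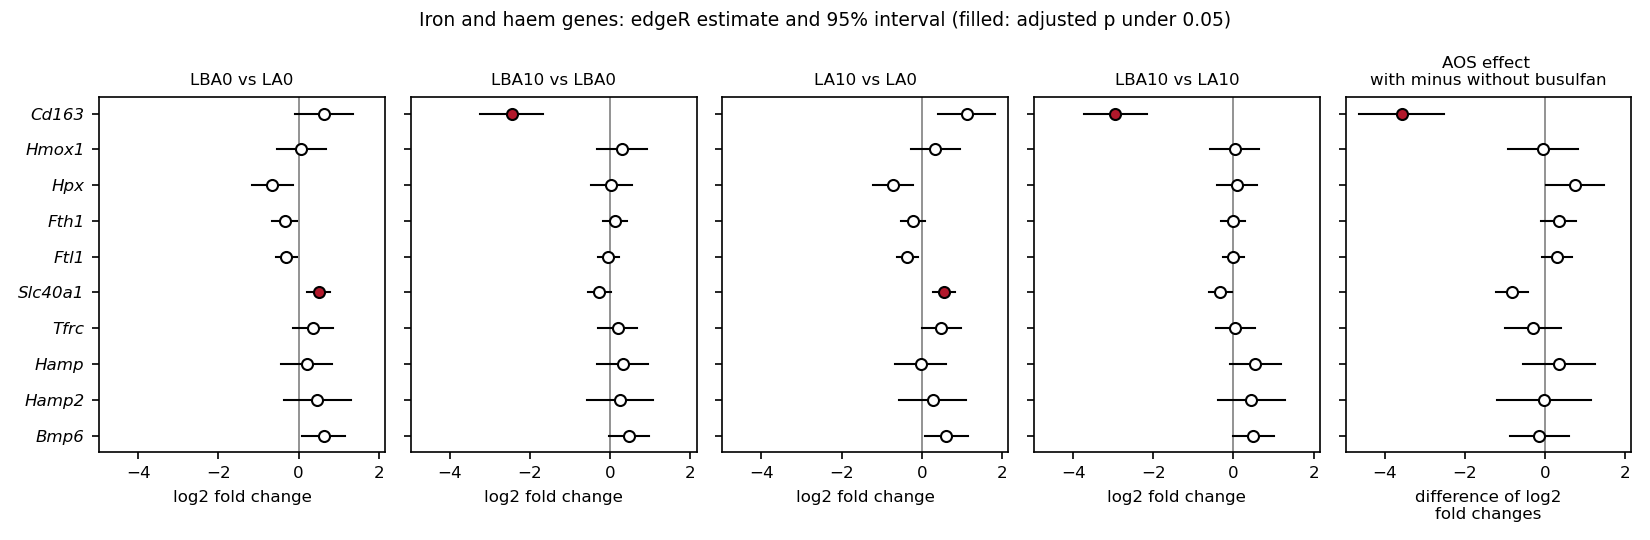
Log2 fold change of the 10 genes in 4 comparisons of groups, and the difference of the AOS effects with and without busulfan, each with its 95% interval from edgeR. Filled points were called. Cd163 lies at -2.46, -2.95 and -3.58 in the 3 panels where it was called, and no other interval in those panels reaches below -2.

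Cd163 encodes the scavenger receptor by which macrophages take up haemoglobin bound to haptoglobin (gene identifier 93671, mm10 chr6:124304656-124330527, plus strand, GENCODE M21, protein coding). It had 0.795, 1.29 and 2.205 CPM in the LBA10 livers, from 13, 25 and 40 counts. The LBA0 livers had 11.1, 4.76 and 8.09 CPM, from 190, 82 and 141 counts. The LA10 livers had 12.2, 11.4 and 9.88 CPM from 210, 194 and 171 counts, and the LA0 livers had 4.68, 6.29 and 4.42 CPM from 70, 100 and 73 counts.

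The LBA10 livers thus held the 3 lowest values of the 12, below every liver of the other groups, and the LA10 livers lay above every LA0 liver. The coefficient of variation of this gene was 50% in LBA10, from few counts, and 39.6% in LBA0, against 10.5% in LA10 and 19.7% in LA0. By group means the order was LA10 (11.2 CPM), LBA0 (7.97 CPM), LA0 (5.13 CPM) and LBA10 (1.43 CPM). LA10 and LBA0 overlapped, LBA0 and LA0 overlapped, and LA0 and LBA10 did not.

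Cd163 was 5.52-fold lower in LBA10 than in LBA0 (log2 fold change -2.46, SE 0.36, 95% interval -3.25 to -1.67, edgeR adjusted p = 0.042). It was 7.71-fold lower in LBA10 than in LA10 (log2 fold change -2.95, SE 0.36, 95% interval -3.74 to -2.16, edgeR adjusted p = 0.0203). Without busulfan the direction was the other way. Cd163 was 2.17-fold higher in LA10 than in LA0 (log2 fold change 1.12, SE 0.33), which did not pass the threshold (edgeR adjusted p = 0.0724). The difference between the AOS effects with and without busulfan was -3.58 on the log2 scale (SE 0.49, 95% interval -4.65 to -2.52, edgeR adjusted p = 0.0238). In LBA0 against LA0 Cd163 had a log2 fold change of 0.63 (95% interval -0.08 to 1.35, edgeR adjusted p = 0.224), which did not pass the threshold. Against LA0, Cd163 had log2 fold changes of 0.54 for LBA0 and 1.03 for LA10 with the length and GC trends removed, and of 0.82 for LBA0 and 1.31 for LA10 without LA0 replicates 1 and 2, with none called.

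The direction of the 3 called differences held in every alternative run, and the calls did not. With DESeq2 Cd163 was called in LBA10 against LBA0, in LBA10 against LA10 and also in LA10 against LA0 (adjusted p = 0.0162), and limma on RPKM gave an adjusted p of 0.0778 for LBA10 against LBA0. With only the libraries compared in the fit, the adjusted p was 0.279 for LBA10 against LBA0 and 0.066 for LBA10 against LA10. Removing the length and GC trends kept the 3 calls, with adjusted p of 0.0383 for LBA10 against LBA0, 0.0125 for LBA10 against LA10 and 0.0259 for the difference of the AOS effects. With LA0 replicates 1 and 2 both left out, an alternative chosen after seeing the data, the log2 fold change in LBA10 against LBA0 was still -2.46, with an adjusted p of 0.155. When libraries were left out in turn, the log2 fold change in LBA10 against LBA0 lay between -2.91 and -2.15, with adjusted p of 0.0155 to 0.241. That call was lost without any of LA0 replicates 1, 2 and 3, LA10 replicates 1 and 2, LBA0 replicates 1 and 3 and LBA10 replicates 1 and 2, and kept without the other 3 libraries. In LBA10 against LA10 it lay between -3.39 and -2.68, with adjusted p of 0.00847 to 0.0882, and the call was lost without LA0 replicate 3, LA10 replicates 1 or 2 or LBA10 replicates 1 or 2. The difference of the AOS effects lay between -4.03 and -3.27, with adjusted p of 0.00798 to 0.105, and the call was lost without LA0 replicates 1 or 2, LA10 replicates 1 or 2, LBA0 replicate 3 or LBA10 replicates 1 or 2. With LA0 replicates 1 and 2 both left out this difference was -3.77, with LA0 replicate 3 alone in its group.

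**Figure D2:**
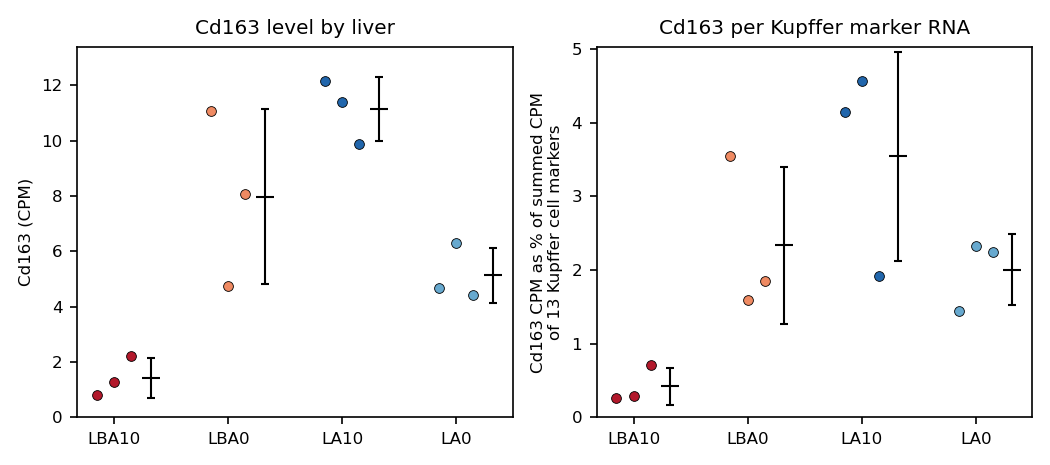
Left, Cd163 in CPM in each liver, with the mean and SD of the 3 livers of a group. Right, the same Cd163 level as a percentage of the summed CPM of 13 Kupffer cell markers. The 3 LBA10 livers lie below all others in both panels, at 0.795 to 2.205 CPM and 0.261% to 0.711%.

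In whole liver, fewer cells of a type and less RNA per cell cannot be told apart. The other Kupffer cell markers are given beside Cd163 as a description. None of the 13 (Clec4f, Vsig4, Timd4, Cd5l and Marco among them) was called by edgeR in LBA10 against LBA0, and 0 of the 13 had an unadjusted p under 0.05. DESeq2 and limma also called 0. Their median log2 fold change was -0.05. In LBA10 against LA10 edgeR, DESeq2 and limma again called 0 of 13, with 0 at an unadjusted p under 0.05 and a median log2 fold change of 0.02. The summed Kupffer cell markers lay between 305.1 and 448.2 CPM in LBA10, 298 and 437.3 CPM in LBA0, 249.5 and 515 CPM in LA10 and 196.8 and 323.2 CPM in LA0, and no marker of the list was at 0 in any liver. Clec4f, a lectin of Kupffer cells, had 58.7 to 97 CPM in LBA10 and 62.1 to 92.5 CPM in LBA0.

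Set against this sum, Cd163 amounted to 0.261%, 0.289% and 0.711% in the LBA10 livers and to 3.55%, 1.60% and 1.85% in the LBA0 livers. It was 4.14%, 4.57% and 1.92% in the LA10 livers and 1.45%, 2.32% and 2.25% in the LA0 livers. By this ratio each LBA10 liver was below every liver of the other groups. The sums overlapped between the groups, so the ratio largely repeats the Cd163 values. The sum also includes Mrc1, which sinusoidal endothelium carries too. Whether cell number or RNA per cell differed was not tested. A further list held markers of monocytes, which can carry the receptor or replace Kupffer cells, and of neutrophils. It summed to 8.32 to 13.5 CPM in LBA10 and 11.8 to 13.8 CPM in LBA0. In LBA10 against LBA0 edgeR called 0 of the 7 tested, with 3 positive and a median log2 fold change of -0.65. An unadjusted p under 0.05 was found for 1 of the 7, against 4.44% of all genes. In LBA10 against LA10 edgeR also called 0 of 7, with 4 positive and a median of 0.25. The neutrophil marker Ly6g was at 0 in every liver of the 4 groups except LBA0 replicate 1 (0.117 CPM), and was not among the 7 tested.

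**Figure D3:**
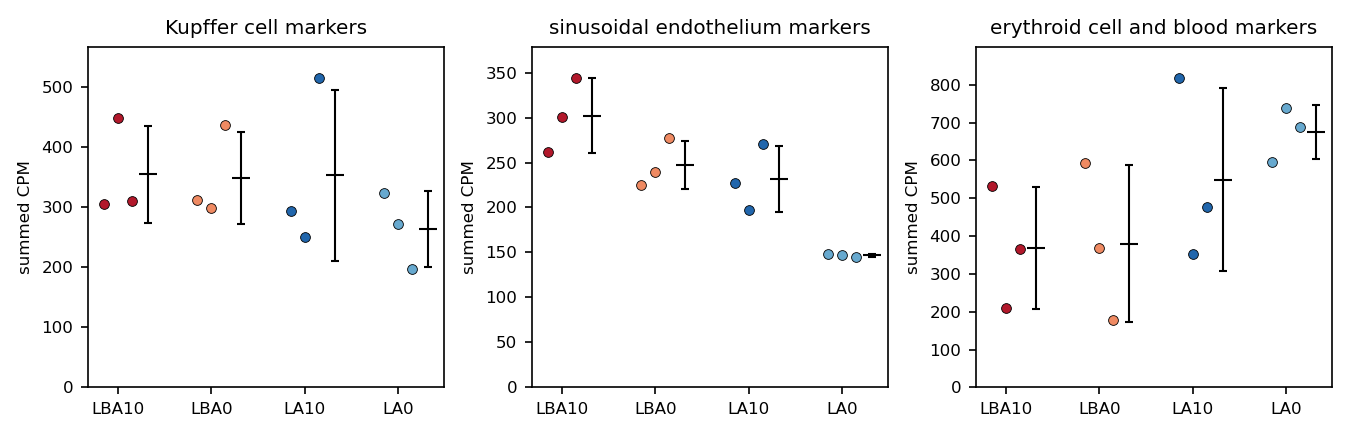
Summed CPM of the marker lists of Kupffer cells (13 genes), sinusoidal endothelium (9 genes) and erythroid cells and blood (9 genes) in each liver, with mean and SD. Kupffer sums overlap between the 4 groups, and the endothelial sums of the 3 LA0 livers (144.8 to 148.4 CPM) lie below those of all other livers.

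Hmox1, haem oxygenase 1, opens the haem ring and is induced by haem and by oxidative stress. It had 31.1, 26.7 and 24.3 CPM in the LBA10 livers and 22.4, 19.8 and 24.8 CPM in the LBA0 livers. The LA10 livers had 33.1, 19.8 and 27.7 CPM and the LA0 livers 29.8, 22.4 and 11.6 CPM. All groups overlapped, and LA0 replicate 3 was the lowest of the 12 livers. The log2 fold change was 0.29 in LBA10 against LBA0 (95% interval -0.32 to 0.91) and 0.07 in LBA0 against LA0 (95% interval -0.55 to 0.69), and edgeR called neither (adjusted p of 1 and 0.886). Both intervals hold 0. The value of Hmox1 in LBA0 against LA0 depended on the LA0 livers: it was 0.30 with the length and GC trends removed, 0.92 without LA0 replicates 1 and 2 (edgeR adjusted p = 0.48), -0.22 without LA0 replicate 3, 0.38 without LA0 replicate 1 and -0.01 without LBA0 replicate 3, so its sign was not settled. In LA10 against LA0 the log2 fold change was 0.34, with 0.57 after removal of the trends, 1.19 without LA0 replicates 1 and 2 (edgeR adjusted p = 0.743), 0.65 without LA0 replicate 1 and 0.04 without LA0 replicate 3, and none was called. Over the 12 livers Cd163 and Hmox1 in log2 CPM had r = -0.14 (permutation p = 0.668, adjusted over 4 relations 0.668) and rho = -0.08 (permutation p = 0.802). Without the 2 livers farthest from the median of Cd163, LBA10 replicates 1 and 2, r was 0.27.

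Hpx encodes haemopexin, the plasma protein with which hepatocytes bind free haem. It had 2133, 2881 and 1915 CPM in the LBA10 livers, and 2373, 1961 and 2433 CPM in the LBA0 livers. The LA10 livers had 2217, 2209 and 2049 CPM and the LA0 livers 4964, 3214 and 2445 CPM. The LA0 livers lay above all LBA0 and LA10 livers, by a small margin in LA0 replicate 3 and by far in replicate 1. The log2 fold change was -0.65 in LBA0 against LA0 (SE 0.23, edgeR adjusted p = 0.0976) and -0.71 in LA10 against LA0 (SE 0.23, edgeR adjusted p = 0.0937). DESeq2 called both, with adjusted p of 0.0273 for LBA0 and 0.019 for LA10. Without LA0 replicate 3 edgeR called both too, with adjusted p of 0.0255 for LBA0 and 0.0206 for LA10. Without LA0 replicates 1 and 2 the log2 fold changes were -0.14 for LBA0 and -0.20 for LA10. Between LBA10 and LBA0 the log2 fold change was 0.03 (95% interval -0.47 to 0.54, edgeR adjusted p = 1).

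The ferritin subunits, Fth1 (heavy chain, which oxidises iron) and Ftl1 (light chain, which seeds the iron core), were the steadiest of the 10 genes. Fth1 had 1318, 1016 and 1090 CPM in LBA10 livers, 1152, 1030 and 999.7 CPM in LBA0 livers, 1302, 1103 and 1057 CPM in LA10 livers and 1542, 1332 and 1190 CPM in LA0 livers. Ftl1 had 2806, 2485 and 2384 CPM in LBA10 livers, 2716, 2685 and 2545 CPM in LBA0 livers, 2885, 2346 and 2467 CPM in LA10 livers and 3692, 3160 and 3000 CPM in LA0 livers. Both have processed pseudogenes of near-identical sequence, so part of their reads may be shared.

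Both subunits were highest in LA0. For Ftl1 the log2 fold change was -0.31 in LBA0 against LA0 (edgeR adjusted p = 0.124) and -0.36 in LA10 against LA0 (edgeR adjusted p = 0.105), and DESeq2 called both (adjusted p of 0.0388 and 0.0232). With the length and GC trends removed these 2 values were 0.03 and 0.00, so the lower level of Ftl1 in LBA0 and LA10 was not seen once the trends were removed. For Fth1 the log2 fold change was -0.35 in LBA0 against LA0 (edgeR adjusted p = 0.122), and -0.25 with the trends removed. Between LBA10 and LBA0 the 95% intervals were -0.19 to 0.41 for Fth1 and -0.31 to 0.21 for Ftl1 on the log2 scale, the narrowest of the 10 genes together with Slc40a1. A change of 1 log2 unit in either ferritin transcript lies outside them.

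Slc40a1 encodes ferroportin, the exporter through which Kupffer cells and hepatocytes release iron (gene identifier 53945, mm10 chr1:45908068-45926523, minus strand). It had 162.1, 199.6 and 178.1 CPM in the LBA10 livers and 178.2, 235.4 and 238.4 CPM in the LBA0 livers. The LA10 livers had 242.8, 231.4 and 202.5 CPM and the LA0 livers 160.3, 140 and 160.1 CPM. The 3 LA0 livers lay below all LBA0 and all LA10 livers, and the LBA10 livers overlapped with LBA0 and lay below LA10.

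Ferroportin rose 1.42-fold in LBA0 against LA0 (log2 fold change 0.50, SE 0.13, edgeR adjusted p = 0.047) and 1.47-fold in LA10 against LA0 (log2 fold change 0.56, SE 0.13, edgeR adjusted p = 0.0457). These comparisons share the LA0 livers. DESeq2 called both (adjusted p of 0.0101 for LBA0 and 0.00369 for LA10), and limma on RPKM did too (0.0229 for LBA0 and 0.0323 for LA10). With the length and GC trends removed the log2 fold changes were 0.28 for LBA0 (edgeR adjusted p = 0.253) and 0.33 for LA10 (edgeR adjusted p = 0.242), and neither was called. Without LA0 replicates 1 and 2 they were 0.41 and 0.47 (edgeR adjusted p of 0.559 and 0.743). When libraries were left out in turn the values were 0.42 to 0.63 for LBA0, and the call was lost except without LA0 replicate 3, LA10 replicate 3 or LBA0 replicate 1. For LA10 they were 0.48 to 0.63, and the call was lost except without LA0 replicate 3. The difference of the AOS effects with minus without busulfan was -0.83 (SE 0.18, 95% interval -1.23 to -0.43), called by DESeq2 (adjusted p = 0.00644) and not by edgeR (adjusted p = 0.163). As for Cd163, the LA10 mean was above the LA0 mean and the LBA10 mean below the LBA0 mean.

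Markers of some cell types rose against LA0, as ferroportin did. Of 9 markers of sinusoidal endothelium, 5 (Stab1, Stab2, Clec4g, Kdr and Gpr182) rose in LBA0 against LA0 and 4 (Stab1, Stab2, Clec4g and Kdr) in LA10 against LA0. Their sum was 225.3 to 277.5 CPM in LBA0 and 196.9 to 270.4 CPM in LA10, against 144.8 to 148.4 CPM in LA0. Of the Kupffer list the mannose receptor Mrc1, which sinusoidal endothelium also carries, rose in both (log2 fold change 1.23 in LBA0 and 1.21 in LA10), with 1 of 13 called. Of the 13, 11 had a positive log2 fold change in LBA0 (median 0.42) and 10 in LA10 (median 0.43). Of 6 stellate cell markers 2 (Lrat and Dcn) rose in LBA0 and 1 (Lrat) in LA10, with sums of 211.5 to 319 CPM in LBA0 and 207.9 to 258.7 CPM in LA10, against 144 to 207.4 CPM in LA0. No gene of these lists was at 0. Over all genes edgeR called 4.09% higher in LBA0 against LA0 and 2.14% higher in LA10 against LA0, with a median log2 fold change of 0.03 in each. With either LA0 replicate 1 or LA0 replicate 2 left out, only 4 of all genes were called in LBA0 and 1 in LA10. With the length and GC trends removed 3 endothelial markers (Clec4g, Gpr182 and Kdr) were called in LBA0 against LA0 and 0 in LA10 against LA0. In LBA10 the 2 parted. The endothelial sum had a mean of 302.1 CPM in LBA10, against 247.5 CPM in LBA0 and 231.5 CPM in LA10. Ferroportin had a mean of 179.9 CPM in LBA10, against 217.3 CPM in LBA0 and 225.6 CPM in LA10. The part of these cell types in the level of ferroportin was not tested.

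**Figure D4:**
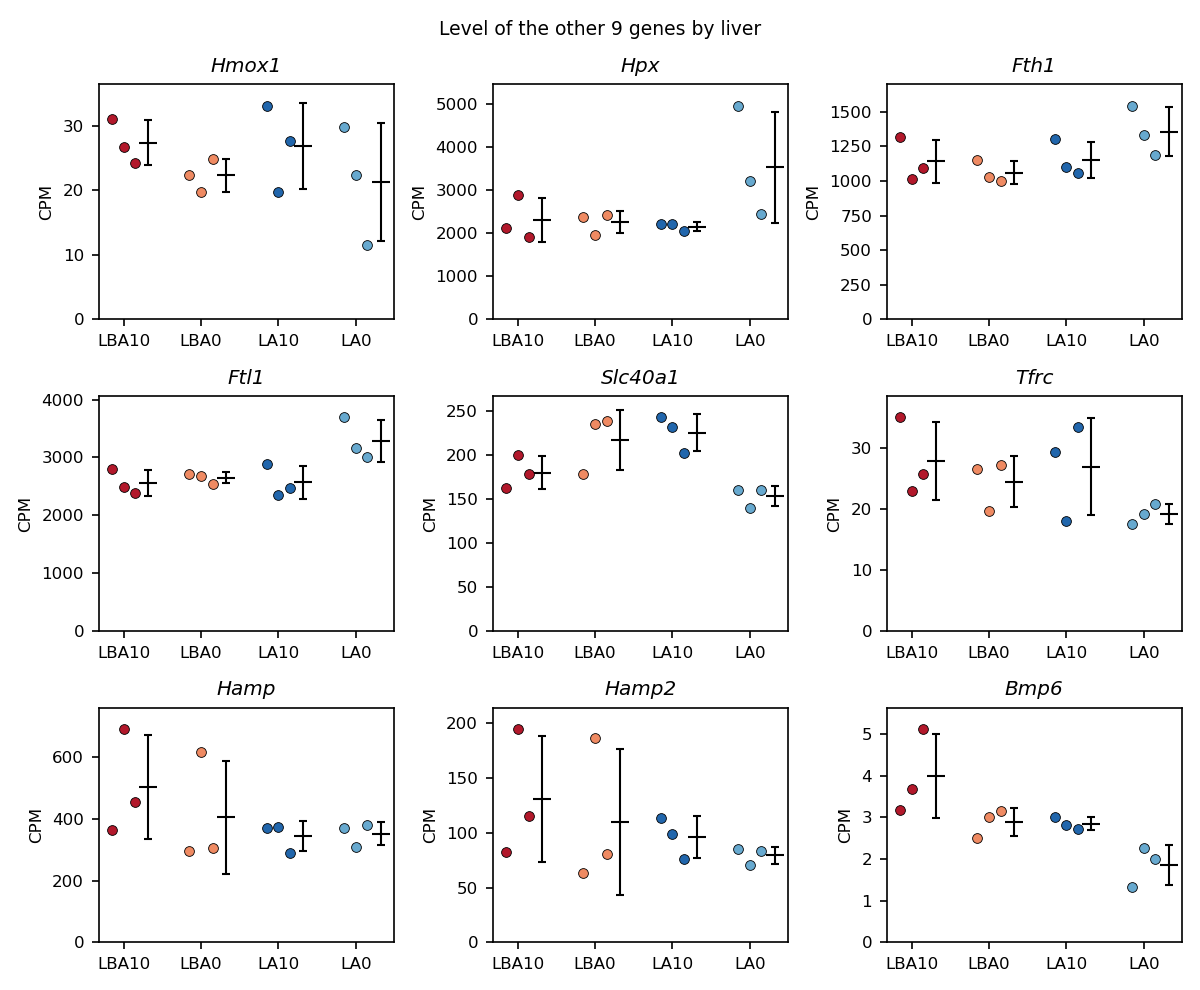
CPM of the other 9 genes in each liver, with the mean and SD of the 3 livers of a group. Slc40a1 and Bmp6 are lowest in LA0, Hpx and Ftl1 are highest in LA0, and Hamp and Hamp2 are high in LBA0 replicate 2 and LBA10 replicate 2.

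Tfrc encodes transferrin receptor 1, which brings transferrin-bound iron into dividing and iron-poor cells. It had 34.9, 22.8 and 25.6 CPM in LBA10 livers and 26.5, 19.6 and 27.1 CPM in LBA0 livers. LA10 livers had 29.2, 18.1 and 33.3 CPM and LA0 livers 17.5, 19.1 and 20.7 CPM. The groups overlapped in every comparison. The log2 fold change was 0.35 in LBA0 against LA0, 0.49 in LA10 against LA0 and 0.19 in LBA10 against LBA0, with edgeR adjusted p of 0.321, 0.201 and 1. With the trends removed the first value was 0.03 and the second 0.16.

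The mouse has 2 hepcidin genes side by side on chromosome 7, Hamp (gene identifier 84506, mm10 chr7:30942368-30944032) and Hamp2 (gene identifier 66438, mm10 chr7:30922372-30924681), both on the minus strand. Hamp makes the hormone that degrades ferroportin and answers to iron through BMP and SMAD signals and to inflammation through interleukin 6 and STAT3, while Hamp2 has been described as lacking this effect on iron in mice. The genes are near-identical in sequence, so reads may be shared between them and the split of counts is uncertain. Because their levels moved together, the 250 bases upstream of their RefSeq starts are shown, with the Cd163 window after them, since Cd163 was the gene called. The sequences are from RefSeq (GRCm38.p6, the mm10 assembly), which held promoters for 8 of the 10 genes, and run 5′ to 3′ on the gene's strand: chr7:30944030-30944279 for Hamp, chr7:30924182-30924431 for Hamp2 and chr6:124304401-124304650 for Cd163. The RefSeq start of Hamp2 is at base 30924181, inside the longer GENCODE gene given above, so its window overlaps that gene model. Capitals mark exact matches on either strand to 3 motifs: GGCGCC (the core of the BMP response element), TTCNNNGAA (bound by STAT factors) and TGANTCA (bound by AP-1).
Hamp: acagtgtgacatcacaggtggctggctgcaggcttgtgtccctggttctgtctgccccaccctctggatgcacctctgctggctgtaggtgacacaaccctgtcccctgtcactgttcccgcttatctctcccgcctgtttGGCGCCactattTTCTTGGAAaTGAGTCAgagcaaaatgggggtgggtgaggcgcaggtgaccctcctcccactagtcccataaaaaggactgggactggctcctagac
Hamp2: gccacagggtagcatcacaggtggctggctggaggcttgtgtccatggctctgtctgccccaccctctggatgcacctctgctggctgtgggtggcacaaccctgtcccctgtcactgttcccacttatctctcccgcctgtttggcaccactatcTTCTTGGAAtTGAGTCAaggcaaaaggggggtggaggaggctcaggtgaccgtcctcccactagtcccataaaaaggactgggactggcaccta
Cd163: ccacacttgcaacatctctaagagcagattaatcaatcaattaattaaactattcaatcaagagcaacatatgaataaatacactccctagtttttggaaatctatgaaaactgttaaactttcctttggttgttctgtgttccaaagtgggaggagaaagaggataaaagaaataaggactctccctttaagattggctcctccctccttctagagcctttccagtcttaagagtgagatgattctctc

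The Hamp and Hamp2 windows were 89.7% identical (227 of 253 alignment columns, 6 of them gaps). Hamp held GGCGCC at -109 to -104 from its start, TTCNNNGAA at -97 to -89 and TGANTCA at -87 to -81. Hamp2 held TTCNNNGAA at -94 to -86 and TGANTCA at -84 to -78, with the same bases in each match as in Hamp, and not GGCGCC. At that place the base change was G4A, counted from 1 at the 5′ end of the motif with the Hamp base first. Of 32851 RefSeq promoter windows of 250 bases, 9.59% held GGCGCC, 7.02% held TTCNNNGAA and 6.75% held TGANTCA. Of the other genes with a window, Tfrc held GGCGCC at -89 to -84, and Cd163, Hpx, Fth1, Ftl1 and Bmp6 held none of the 3 in these 250 bases. A match is a description of the letters and no evidence of binding.

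Hamp had 365.8, 692.1 and 455.4 CPM in LBA10 livers and 295.2, 615.9 and 305 CPM in LBA0 livers. LA10 livers had 371.1, 373.5 and 290.2 CPM and LA0 livers 370.9, 308.6 and 379 CPM. Hamp2 had 82.1, 194.9 and 115.8 CPM in LBA10 livers, 63.4, 186.3 and 80.5 CPM in LBA0 livers, 113.5, 99.2 and 75.9 CPM in LA10 livers and 84.8, 70.5 and 83.2 CPM in LA0 livers. The high hepcidin livers were LBA10 replicate 2 and LBA0 replicate 2, which had the 2 highest values of both genes, and the groups overlapped in every comparison.

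Spread within the busulfan groups was wide. The coefficient of variation of Hamp was 33.4% in LBA10 and 45% in LBA0, against 13.7% in LA10 and 10.9% in LA0, and that of Hamp2 was 44.2% in LBA10 and 60.5% in LBA0, against 19.8% in LA10 and 9.88% in LA0. The difference in spread was not tested. The log2 fold change of Hamp was 0.32 in LBA10 against LBA0 (95% interval -0.32 to 0.95), 0.20 in LBA0 against LA0 (95% interval -0.43 to 0.83) and -0.03 in LA10 against LA0 (95% interval -0.66 to 0.60). That of Hamp2 was 0.25 in LBA10 against LBA0 (95% interval -0.58 to 1.08), 0.47 in LBA0 against LA0 (95% interval -0.37 to 1.31) and 0.27 in LA10 against LA0 (95% interval -0.56 to 1.11). edgeR called none of these, with adjusted p of 0.441 to 1. With the length and GC trends removed the values against LA0 were 0.51 in LBA0 and 0.32 in LA10 for Hamp, and 0.79 in LBA0 and 0.64 in LA10 for Hamp2. Without LA0 replicates 1 and 2 they were 0.07 in LBA0 and -0.16 in LA10 for Hamp, and 0.38 in LBA0 and 0.19 in LA10 for Hamp2, and none was called. Without LBA0 replicate 2 the direction in LBA0 against LA0 turned, to -0.23 for Hamp and -0.14 for Hamp2, so a single liver set the sign of both.

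The 2 genes followed each other from liver to liver. Over the 12 livers log2 CPM of Hamp and Hamp2 had r = 0.96 (permutation p = 3e-05, adjusted over 4 relations 0.00012) and rho = 0.92 (permutation p = 0.00012). Without the 2 livers farthest from the median of Hamp, LBA10 replicate 2 and LBA0 replicate 2, r was 0.82, and with each group's mean removed it was 0.98. By RPKM, Hamp2 amounted to 18.5% to 26.4% of Hamp, with a median of 22.2%. The share of reads split between the copies was not tested.

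**Figure D5:**
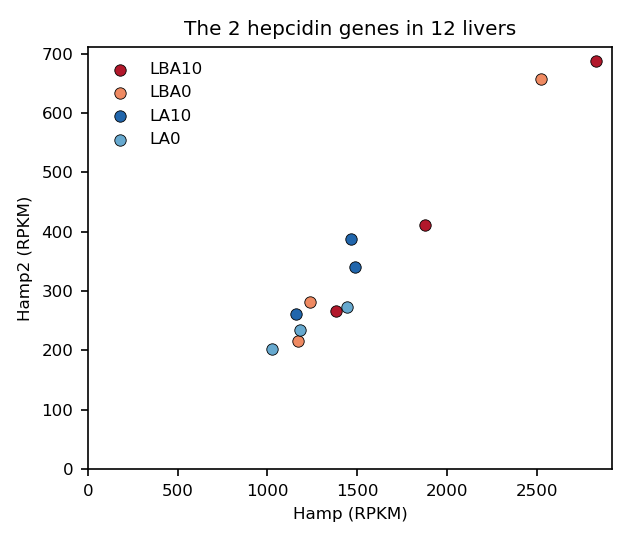
RPKM of Hamp (horizontal) and Hamp2 (vertical) in the 12 livers, coloured by group. The LBA10 and LBA0 livers at the upper right, with 2829 and 2524 RPKM of Hamp, are replicate 2 of each group, and the other 10 livers have 1026 to 1878 RPKM of Hamp.

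Bmp6 encodes the ligand through which iron-loaded endothelial cells raise hepcidin. It had 3.18, 3.67 and 5.13 CPM in the LBA10 livers, from 52, 71 and 93 counts, and 2.51, 3.02 and 3.15 CPM in the LBA0 livers, from 43, 52 and 55 counts. The LA10 livers had 3.01, 2.82 and 2.72 CPM and the LA0 livers 1.34, 2.26 and 2 CPM, from 20, 36 and 33 counts. The groups did not overlap in any of the 4 comparisons: LBA10 was above LBA0 (by a narrow margin) and above LA10, and both LBA0 and LA10 were above LA0. No comparison was called. The log2 fold change was 0.63 in LBA0 against LA0 (SE 0.24, edgeR adjusted p = 0.122), 0.61 in LA10 against LA0 (SE 0.24, edgeR adjusted p = 0.153), 0.47 in LBA10 against LBA0 (95% interval -0.04 to 0.98, edgeR adjusted p = 1) and 0.49 in LBA10 against LA10 (95% interval -0.02 to 1, edgeR adjusted p = 0.593). DESeq2 and limma called none of them. Removing the trends left the first values at 0.75 in both.

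Non-overlap was common among all genes: 34.2% of the genes tested did not overlap between LBA0 and LA0, 26.0% between LA10 and LA0, 10.8% between LBA10 and LBA0 and 13.5% between LBA10 and LA10. Of the 10 iron and haem genes, 5, 5, 2 and 3 did not overlap in these comparisons. In LBA0 against LA0 they were Hpx, Fth1 and Ftl1 (lower) and Slc40a1 and Bmp6 (higher), and in LA10 against LA0 Cd163, Slc40a1 and Bmp6 (higher) and Hpx and Ftl1 (lower). An unadjusted p under 0.05 was found for 5 of 10 genes in LBA0 against LA0 and 5 of 10 in LA10 against LA0, 1 of 10 in LBA10 against LBA0, 2 of 10 in LBA10 against LA10 and 3 of 10 for the difference of the AOS effects. Over all genes the shares were 28.5% in LBA0 against LA0, 24.9% in LA10 against LA0, 4.44% in LBA10 against LBA0, 8.72% in LBA10 against LA10 and 15.5% for the difference. The median log2 fold change of the 10 was 0.28 in LBA0 against LA0 and 0.31 in LA10 against LA0, beside 0.03 over all genes in each, and 0.15 in LBA10 against LBA0, beside -0.01.

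The endothelial markers followed the same order as Bmp6. Their sum was 261.2 to 344 CPM in LBA10, 225.3 to 277.5 CPM in LBA0, 196.9 to 270.4 CPM in LA10 and 144.8 to 148.4 CPM in LA0. All 9 markers had a positive log2 fold change in LBA10 against LBA0 (median 0.30), with 0 called by edgeR, DESeq2 or limma and 3 at an unadjusted p under 0.05. Their part in the level of Bmp6 was not tested. Bmp6 and Hamp were weakly related over the 12 livers in log2 CPM (r = 0.37, permutation p = 0.233, adjusted over 4 relations 0.466; rho = 0.39, permutation p = 0.21), and with each group's mean removed r was 0.07. Without LA0 replicate 1 and LBA10 replicate 3, the livers farthest from the median of Bmp6, r was 0.51. Hamp and Tfrc had r = -0.30 (permutation p = 0.353, adjusted over 4 relations 0.471) and rho = -0.41 (permutation p = 0.194), and r = -0.21 without LBA10 replicate 2 and LBA0 replicate 2. With each group's mean removed r was -0.70, which was not tested. In log2 CPM neither relation passed the threshold. On log2(RPKM + 0.1) Hamp and Tfrc had r = 0.03, and -0.55 with each group's mean removed. On that scale Bmp6 and Hamp had r = 0.57 (permutation p = 0.059, adjusted over 4 relations 0.118) and rho = 0.69 (permutation p = 0.0155, adjusted 0.031), so the rank correlation passed the threshold there, with r = 0.25 once each group's mean was removed.

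Around these 10 genes, 67 further genes of iron and haem metabolism in 8 lists were examined, of which 66 were tested. In LBA0 against LA0, 5 rose (7.58%) and 4 fell (6.06%), against 4.09% and 2.3% of all genes called higher and lower, and this difference in shares was not tested. Those that rose were Bmp2, the other endothelial hepcidin ligand (11.5 ± 0.329 CPM in LBA0 and 6.42 ± 1.64 CPM in LA0, SD, n = 3 each, log2 fold change 0.84, edgeR adjusted p = 0.0339), its receptors Bmpr1a and Bmpr2, the interleukin 6 signal transducer Il6st, and Nfe2l2, which encodes the oxidative stress factor Nrf2. The log2 fold changes were 0.49 for Bmpr1a, 0.63 for Bmpr2, 0.61 for Il6st and 0.91 for Nfe2l2. Those that fell were the iron sensor Tfr2 (log2 fold change -0.32), the biliverdin reductase Blvrb (-0.40), the haem synthesis enzyme Urod (-0.35) and Id2, a target of BMP signals (-1.05, with 49.1 ± 5.68 CPM in LBA0 and 102 ± 7.15 CPM in LA0, SD, n = 3 each). Of 15 tested genes of hepcidin control, 4 rose, while of 7 targets of BMP and SMAD signals 0 rose and 1 fell, with a median log2 fold change of -0.75. Each of these 9 calls was lost without LA0 replicate 1, LA0 replicate 2, LBA0 replicate 2 or LBA0 replicate 3. Out of the 12 libraries left out in turn, the calls were lost without 4 for Bmpr2, Il6st and Nfe2l2, 6 for Bmp2, 7 for Id2, 9 for Bmpr1a and Blvrb and 10 for Tfr2 and Urod. DESeq2 called 5 of the 66 higher and 9 lower, and limma called 11 of 63 higher and 1 lower. Over all genes DESeq2 called 875 higher and 783 lower, and limma called 1495 higher and 75 lower. An unadjusted p under 0.05 in edgeR was found for 22 of the 66 (33.3%), against 28.5% of all genes.

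In LA10 against LA0, 5 of the 66 rose (7.58%) and 0 fell, by edgeR, against 2.14% and 1.5% of all genes called higher and lower. An unadjusted p under 0.05 was found for 20 of the 66 (30.3%), against 24.9% of all genes. The 5 that rose were in the list of hepcidin control: Bmp2 (12.2 ± 2.29 CPM in LA10 and 6.42 ± 1.64 CPM in LA0, SD, n = 3 each, log2 fold change 0.92), Bmpr2 (0.64), Smad5 (0.37), Il6ra (0.66) and Il6st (0.59), with edgeR adjusted p of 0.0397 to 0.0445. Each of these 5 calls was lost when any library other than LA0 replicate 3 was left out (adjusted p up to 0.159). DESeq2 called 8 of the 66 higher and 4 lower, and limma called 11 of 63 higher and 0 lower. Over all genes DESeq2 called 686 higher and 625 lower, and limma called 941 higher and 77 lower. With the length and GC trends removed, 2 of the 66 were called in LBA0 against LA0 (Nfe2l2 higher and Fech, the last enzyme of haem synthesis, lower) and 0 in LA10 against LA0.

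In the other comparisons edgeR called 0 of the 66. In LBA10 against LBA0 there were 2 (3.03%) at an unadjusted p under 0.05, against 4.44% of all genes (Id1, log2 fold change 0.86, and Bach1, the haem-binding repressor of Hmox1, 0.39), and DESeq2 and limma called 0. In LBA10 against LA10 there were 5 (7.58%) at an unadjusted p under 0.05, against 8.72% of all genes, and DESeq2 called 1, Nfe2l2. For the difference of the AOS effects there were 10 (15.2%) at an unadjusted p under 0.05, near the 15.5% of all genes. Il6st (log2 difference -0.63) and Bmpr2 (-0.56) were the 2 that DESeq2 called.

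The genes whose level followed that of Cd163 most closely over the 12 livers, among 11804 genes of at least 1 CPM on average, were Pdp2 (Pearson r of log2 CPM 0.91), Cadm1 (0.90), Cbx2 (0.90), Zfp956 (0.89) and Rpusd2 (0.88). For Hamp they were Atp1b1 (0.91), Lhx6 (0.90), Npas2 (0.84), Gria3 (0.77) and Zfp429 (0.75), after leaving out the other 9 genes of iron and haem. These are descriptions over 12 libraries that share the 4 groups, and none is a Kupffer cell marker of the list. The Spearman rho of the same genes was 0.67 to 0.83 with Cd163 and 0.52 to 0.91 with Hamp.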

How the data were processed

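Liver RNA of 12 mice was analysed. The authors aligned the reads to genes with SOAPaligner (build mm10 per the labels) and deposited estimated counts, 78.6% to 80.3% of them whole (within 1e-06), and RPKM values, which divide these by gene length and library total. How the decimals arose, and which annotation and counter were used, the sources used here do not state. Deposited group means (8 columns) were left aside.

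Counts were rounded, scaled by TMM and fitted with edgeR 4.0.16 (quasi-likelihood, 4 group means, filterByExpr with at least 10 counts and 15 in total, 8 residual degrees of freedom) in R 4.3.3. Alternatives were DESeq2 1.42.0, limma 3.58.1 on log2(RPKM + 0.1) where 3 libraries reached 1 RPKM, upper-quartile factors, no filter, only the libraries compared, a replicate block, removal of length and GC trends (splines of 4 degrees of freedom, 12219 genes), both together, an adjusted p of 0.001 with an absolute log2 fold change of 1, each library left out, and, chosen after seeing the data, LA0 replicates 1 and 2 both left out. Fits were tested on simulated data. Correlations used 100000 permutations, two-sided (Python 3.11.15, scipy 1.17.1). Precision is limited by 3 livers per group and, for Cd163 and Bmp6, by few counts.

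Named genes are the 10 genes, each list gene called and otherwise up to 3 with the smallest p, and the 5 genes most like Cd163 and Hamp. The genes and lists were chosen with earlier results of these data known. The list gene Hjv stands in the table under an older symbol.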

Additional observations from a re-analysis of the deposited data

Results flagged for a closer look

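The effect of AOS on Cd163 differed between mice with and without busulfan, by -3.58 on the log2 scale (SE 0.49, edgeR adjusted p = 0.0238). It drew attention because the effects ran in opposite directions: -2.46 in LBA10 against LBA0 and 1.12 in LA10 against LA0. Each LBA10 liver was below each LBA0 liver, and each LA10 liver was above each LA0 liver. The value of 1.12 was not called (edgeR adjusted p = 0.0724). The difference of the effects was tested by the interaction term of the fit. That term also rests on the LA0 livers, and its call was lost without LA0 replicate 1 or 2. The call was likewise lost without LA10 replicates 1 or 2, LBA0 replicate 3 or LBA10 replicates 1 or 2. With a replicate block it was lost too (edgeR adjusted p = 0.0915). With LA0 replicates 1 and 2 both left out the difference was -3.77. The cause of the difference was not tested.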

How the results depend on the processing

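The number of genes called in the 2 comparisons with LA0 depended on the processing. In LBA0 against LA0 it was 823, and became 1658 with DESeq2, 1570 with limma on RPKM, 433 with no filter, 96 with only the libraries compared, 106 with the length and GC trends removed, 1 without LA0 replicates 1 and 2 (chosen after seeing the data) and 1 at an adjusted p of 0.001 with an absolute log2 fold change of 1. In LA10 against LA0 it was 469, and became 1311, 1018, 20, 2, 3, 1 and 1 in the same order. In LBA10 against LBA0 it was 7, and became 37 with DESeq2, 11 with no filter, 3 with only the libraries compared, 3 without LA0 replicates 1 and 2 and 2 at the strict thresholds. In LBA10 against LA10 it was 16, and became 155 with DESeq2, 4 with only the libraries compared, 1 without LA0 replicates 1 and 2 and 0 at the strict thresholds (1125 genes had an unadjusted p under 0.05). For the difference of the AOS effects it was 7, and became 273 with DESeq2, 2 without LA0 replicates 1 and 2 and 2 at the strict thresholds. Of the calls in LBA0 against LA0 64% were higher, against 52.8% with DESeq2, 37.9% with upper-quartile factors and 95.2% with limma, and in LA10 against LA0 58.8%, against 52.3%, 32.7% and 92.4%. On the RPKM scale of limma the median log2 fold change of all genes was 0.18 in LBA0 against LA0 and 0.17 in LA10 against LA0, beside 0.03 in edgeR.

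Of the 10 iron and haem genes, 1 was called in each comparison. DESeq2 called 3 in LBA0 against LA0 (Slc40a1, Hpx and Ftl1) and 4 in LA10 against LA0 (these and Cd163), and limma called 2 in LA10 against LA0 (Slc40a1 and Cd163). With upper-quartile factors, with no filter or with the trends removed, 0 were called in both comparisons with LA0, and limma called 0 in LBA10 against LBA0. With only the libraries compared 0 were called in any of the 4 comparisons, and 0 in all 5 without LA0 replicates 1 and 2 or at the strict thresholds. DESeq2 gave Cd163 no adjusted p for the difference of the AOS effects (unadjusted p = 5.08e-13). No result of the 10 genes that was called in edgeR changed direction under any alternative.

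Replicate numbers were not taken to pair the livers, since over all genes the deviations of same-numbered livers from group means correlated at -0.07 to 0.14 (3 of 18 pairs over 0.1) and those of other-numbered livers at -0.2 to 0.17, although the single gene Alas2 was high in replicate 1 of every group. With a replicate block the count of all genes in LBA10 against LA10 was 1, and with the block and the trends removed the counts were 105 in LBA0 against LA0, 9 in LA10 against LA0 and 7 in LBA10 against LA10. With the replicate block 0 of the 10 genes were called in LBA10 against LBA0 (Cd163 log2 fold change -2.45, adjusted p = 0.17), LA10 against LA0, LBA10 against LA10 (Cd163 -2.95, adjusted p = 0.0594) and the difference of the AOS effects (Cd163 -3.56, adjusted p = 0.0915), while Fth1 was the gene called in LBA0 against LA0 (log2 fold change -0.35, adjusted p = 0.0483). With the block and the trends removed 0 were called in LBA0 against LA0, LBA10 against LBA0, LA10 against LA0 and the difference of the AOS effects.

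Leaving out each library in turn gave 4 to 1876 genes in LBA0 against LA0 (4 without LA0 replicate 1 or 2, 1876 without LA0 replicate 3, and over 1.5 times off without any library but LA10 replicate 1), 1 to 1675 in LA10 against LA0 (over 1.5 times off without any library, 1675 without LA0 replicate 3), 3 to 12 in LBA10 against LBA0 (3 without LBA0 replicate 1, 12 without LA10 replicate 3 and 11 without LBA0 replicate 2), 0 to 101 in LBA10 against LA10 (0 without LA10 replicate 1, 1 without LA0 replicate 3 or LBA10 replicate 1 or 2, 2 without LA10 replicate 2, 7 without LA0 replicate 1, 10 without LBA10 replicate 3 and 101 without LA10 replicate 3) and 5 to 245 for the difference of the AOS effects (11 without LBA10 replicate 3, 12 without LA10 replicate 3 and 245 without LA0 replicate 3). The count of the 10 genes ranged between 0 and 2 in both comparisons with LA0 and between 0 and 1 in the other comparisons and the difference. Of the relations, Hamp with Tfrc moved to r = 0.03 on the RPKM scale, where rho of Bmp6 with Hamp passed the threshold (0.69, adjusted p = 0.031, against 0.39 in log2 CPM), and Cd163 with Hmox1 to r = 0.27 without the 2 farthest livers. The causes were not tested. The depth behind Cd163 in LBA10 was 13 to 40 counts, which limits the precision of its folds.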

Other observations

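Some genes of the red cell list were uneven between livers in a way that cut across the 4 groups. Alas2, the enzyme that starts haem synthesis in erythroid cells, had 183, 25.3 and 189 CPM in LBA10 livers, 211, 29.4 and 17.3 CPM in LBA0 livers, 193, 29.2 and 16.3 CPM in LA10 livers and 213, 49 and 28.2 CPM in LA0 livers. Replicate 1 of every group and LBA10 replicate 3 thus had 183 to 213 CPM and the other 7 livers had 16.3 to 49 CPM. Other genes of the list were ordered otherwise: Hba-a1 had 237 CPM in LA0 replicate 1 and 425 CPM in LA0 replicate 2, and Slc4a1 had 0.058 CPM in LA10 replicate 1 and 0.294 CPM in LA10 replicate 2. Alas2 was chosen after its values were seen, and the cause was not tested.

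The adult beta globin genes of the mouse carry different names on different haplotypes of the locus, Hbb-bs and Hbb-bt on one and Hbb-b1 and Hbb-b2 on another. Hbb-bs had 21.8 CPM in LBA10 replicate 3, 76.3 CPM in LA10 replicate 3 and 86.4 CPM in LA0 replicate 2, and 0 to 2.6 CPM in the other 9 livers. Hbb-bt had 4.14, 14.7 and 17.2 CPM in the same 3 livers and 0 to 0.727 CPM in the others. Hbb-b1 was present in all 12 livers, at 32.4 to 216 CPM. These copies are near-identical, so the split of their reads is uncertain, and they were chosen after their values were seen.

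The red cell list summed to 208.7 to 531.6 CPM in LBA10, 177.3 to 592.3 CPM in LBA0, 352.4 to 818 CPM in LA10 and 596.6 to 737.6 CPM in LA0. Of 8 genes tested, 1 (Slc4a1, the anion exchanger of the red cell membrane, at 0.0574 to 0.291 CPM in LBA0 and 0.606 to 1.94 CPM in LA0) was called lower in LBA0 against LA0 by edgeR (log2 fold change -2.48, adjusted p = 0.0489). Slc4a1 was also called lower in LA10 against LA0, without busulfan (0.058 to 0.294 CPM in LA10, log2 fold change -2.92, adjusted p = 0.0462). None of the 8 had a positive log2 fold change in either comparison. DESeq2 called Hba-a1 and Hba-a2 lower in LBA0 against LA0 and not Slc4a1, and called 0 of 8 in LA10 against LA0, and limma called 0 of 7 in both. With the length and GC trends removed edgeR called 0 of 6 in both. At these low CPM the values of Slc4a1 rest on few counts.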
